A study of Mus musculus with 6 samples.

Results

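The adrenergic receptors of the mouse lateral septum (LS) were examined in RNA-seq libraries from female wild-type C57BL/6 mice given olanzapine in their feed for 12 weeks or kept on standard chow for the same time. The 7 genes Adra1a, Adra1b, Adra1d, Adra2a, Adra2b, Adra2c and Adrb1 were taken by symbol from the 35415 genes of the deposited tables, and the remaining beta receptor genes were not analysed here. The mice were about 8 weeks old on arrival and had 1 week of acclimation, and the olanzapine group then ate feed with 50 mg of the drug per kg. Each library was made from micro-dissected LS tissue pooled from 3 mice, with 3 pools per diet, so n = 3 pools per group throughout and how far single mice differed cannot be seen.

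None of the 7 receptor genes was called different between the diets. Calling a gene required an adjusted p under 0.05 and a fold change above 2 or below 0.5, and 1.01% of the 17255 tested genes met both (quasi-likelihood F test of edgeR, Benjamini-Hochberg adjustment, as for every adjusted p given here unless another tool is named). At an unadjusted p under 0.05, 17.6% of all tested genes but again 0 of the 7 receptor genes passed, and with DESeq2 0 of the 7 were called. The receptor with the largest difference was Adra1d, an alpha-1 receptor, whose mean level was higher in the olanzapine group through a single pool. In the other olanzapine pools it lay below every control pool. Adra1d was also the only one of the 7 with a fold change beyond 2 in either direction, as were 4.55% of all tested genes, and 3 of the 7 had a log2 fold change below 0, as had 49.3% of all tested genes.

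Noradrenaline reaches the septum in the axons of brainstem neurons, mainly those of the locus coeruleus, and acts there on G protein-coupled receptors. Alpha-1 receptors couple to Gq, which activates phospholipase C and releases calcium from stores. Alpha-2 receptors couple to Gi and Go, which lower cyclic AMP and open inwardly rectifying potassium channels, and they also sit on noradrenergic terminals, where they limit release. Beta-1 receptors couple to Gs and raise cyclic AMP. Olanzapine is an antipsychotic that blocks dopamine, serotonin, histamine, muscarinic and alpha-1 adrenergic receptors.

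The 7 genes are related in sequence, so a conserved stretch is shown, to make clear how far their reads can be told apart. It runs from the codon of the aspartate in the third transmembrane helix, which binds the amine of noradrenaline, to the codons of the aspartate-arginine-tyrosine motif at the inner end of that helix. The letters are those of the coding strand in GENCODE M21 transcripts, 5′ to 3′, and both sites are in capitals.
Adra1a, chr14:66637893-66637952, plus strand, exon 2 of 4: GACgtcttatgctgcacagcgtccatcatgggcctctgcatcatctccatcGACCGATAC
Adra1b, chr11:43835657-43835716, minus strand, exon 1 of 2: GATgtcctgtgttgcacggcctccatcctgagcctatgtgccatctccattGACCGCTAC
Adra1d, chr2:131561602-131561661, minus strand, exon 1 of 2: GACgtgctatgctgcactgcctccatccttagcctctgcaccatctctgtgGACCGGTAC
Adra2a, chr19:54046596-54046655, plus strand, exon 1 of 1: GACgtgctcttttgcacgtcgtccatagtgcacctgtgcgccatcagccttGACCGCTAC
Adra2b, chr2:127363853-127363912, plus strand, exon 1 of 1: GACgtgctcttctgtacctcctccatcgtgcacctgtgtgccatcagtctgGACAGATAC
Adra2c, chr5:35280276-35280335, plus strand, exon 1 of 1: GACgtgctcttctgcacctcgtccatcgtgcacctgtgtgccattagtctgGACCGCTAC
Adrb1, chr19:56722783-56722842, plus strand, exon 1 of 1: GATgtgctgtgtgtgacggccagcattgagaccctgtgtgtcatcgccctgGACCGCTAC
All positions are in GRCm38, the build that the labels name as mm10, and all lie in coding exons. Within these 60 bases, receptors of the same class were 76.7% to 91.7% identical over 6 pairs, and receptors of different classes 60% to 75% over 15 pairs. Over the whole annotated transcripts, the longest stretch that any pair shared without a mismatch was 26 bases, between Adra2a and Adra2c, against a read length of 150 bases. Adra2a, Adra2b, Adra2c and Adrb1 have a single exon in the transcripts used, whereas Adra1a and Adra1b span 135918 and 126605 bases of genome. Exons of Adra1d overlap those of Gm14285 on the opposite strand, and the strand setting of the counting is not given in the sources used here. Gm14285 was also highest in olanzapine pool 1, with 78 counts there, 2 and 0 in olanzapine pools 2 and 3, and 3, 6 and 8 in the control pools. Without strand-specific counting, reads of these genes could not be told apart where they overlap.

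All 7 receptor genes were measured in all 6 pools, with counts from 40 to 2103 per gene and pool, and all passed the filter on low counts. Levels were compared between genes only as FPKM, that is fragments scaled by transcript length and library depth, as computed by the authors. In the control pools the alpha-2 receptors Adra2a and Adra2c had the highest levels, at 12.3 ± 1.74 and 7.30 ± 1.66 FPKM (SD, n = 3 pools). Adrb1 followed at 4.04 ± 0.703 FPKM, then Adra1b at 2.00 ± 0.225, Adra1a at 1.51 ± 0.0572 and Adra1d at 1.20 ± 0.152. Adra2b, at 0.955 ± 0.199 FPKM, was lowest. Each neighbour in this order was separated from the next in all 3 control pools with no overlap of their ranges, except Adra1d and Adra2b, whose ranges overlapped. In the olanzapine group Adra2a, at 9.94 ± 2.32 FPKM, overlapped with Adra2c, at 8.28 ± 1.5, and Adra1d moved up in the order of means to 3.4 ± 4.78 FPKM, an SD larger than the mean.

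**Figure D1:**
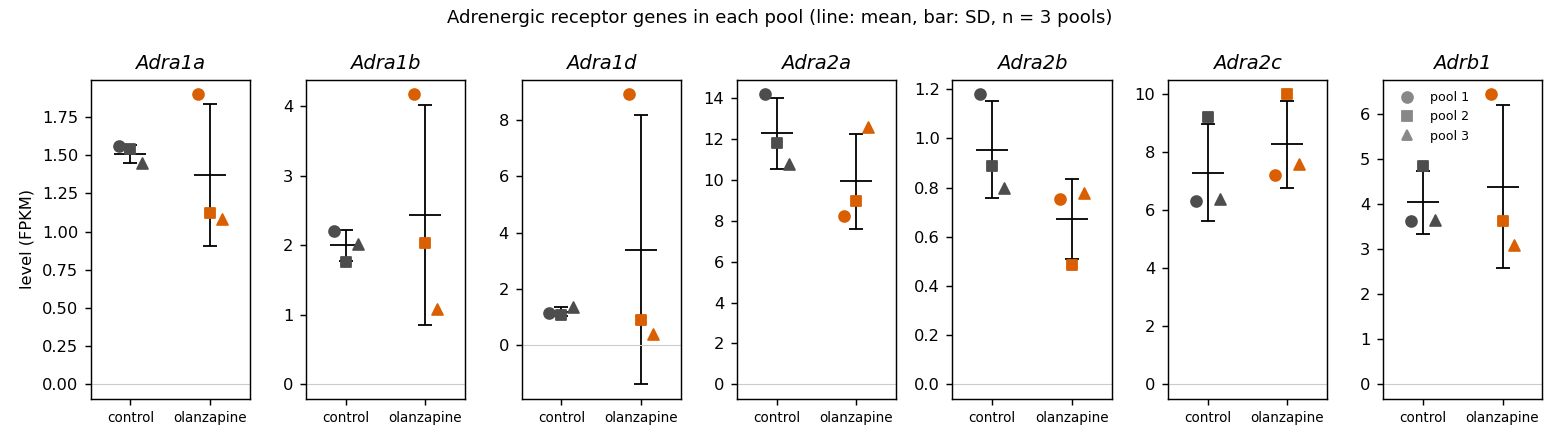
Level of each adrenergic receptor gene in FPKM (vertical axis, a separate scale per gene) in the 3 control and 3 olanzapine pools. Symbols are single pools, the horizontal line is the group mean and the bar the SD. Olanzapine pool 1 is the highest point for Adra1a, Adra1b, Adra1d and Adrb1.

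The libraries were alike in depth, with 38208153 to 39868872 counts on genes. Genes of the LS neuron list were detected in all pools, but marker levels differed between pools, those of cortical neurons most in olanzapine pool 1 and those of choroid plexus within both groups. The summed level of 9 marker genes of cortical glutamatergic neurons was 995 CPM (counts scaled to library depth) in that pool and 79.3 to 154 CPM in the other 5, and 8 of the 9 markers were highest there. Slc17a7, which encodes a vesicular glutamate transporter of cortical neurons, had 24973 counts in olanzapine pool 1 and 415 to 2171 in the others. The summed level of the 10 genes of the LS neuron list was lowest in the same pool, at 1990 CPM against 2260 to 3070. Between 68% and 70.6% of that sum came from Gad1, Gad2 and Slc32a1, which GABAergic neurons express in general, and without these and Sst the other 6 genes summed to 377 CPM in olanzapine pool 1 and 474 to 743 CPM elsewhere. Of the 13 marker lists, that of hepatocytes had all 8 genes called higher in the olanzapine group, at 233 to 291 CPM against 10.2 to 19.3 in the control pools. In the other 12 lists 0 of 76 tested genes were called by edgeR and 0 by DESeq2, while 11 had an unadjusted p under 0.05 with edgeR. Among these 12 lists, brain endothelium markers summed to 156, 157 and 136 CPM in the control pools and 160, 93.2 and 83.8 CPM in olanzapine pools 1 to 3. Markers of vascular smooth muscle summed to 27.4, 35.2 and 27.3 CPM in the control pools and 44.5, 22.7 and 24.7 CPM in the olanzapine pools. Both vascular lists were thus highest in olanzapine pool 1 and below all control pools in olanzapine pools 2 and 3. Striatal projection neuron markers were at 1090, 1850 and 1380 CPM in the control pools and 1100, 2210 and 2140 CPM in the olanzapine pools, and astrocyte markers at 4090 to 4660 CPM against 3320 to 3900 CPM. Choroid plexus markers varied widely within each group, at 99.7, 321 and 696 CPM in the control pools and 155, 525 and 67.5 CPM in the olanzapine pools. For the remaining lists the control and olanzapine ranges overlapped, at 335 to 353 and 325 to 380 CPM for microglia, 3880 to 4570 and 3550 to 4790 for oligodendrocytes, 57.7 to 97.6 and 58.8 to 76 for cholinergic neurons of the medial septum, and 30.4 to 50.3 and 22.8 to 46.8 for meninges and fibroblasts. The 7 nuclear-retained long noncoding RNAs summed to 2270 to 2820 CPM in the control pools and 5080 to 6150 CPM in the olanzapine pools. Of them, 4 were called higher in the olanzapine group, against 1.01% of all tested genes called in either direction. The part of cortical, vascular, striatal, astrocyte, choroid plexus, hepatocyte and nuclear RNA in the receptor values was not tested.

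Adra1d showed the widest spread of the family. Control pools 1 to 3 held 118, 113 and 141 counts of it, and olanzapine pools 1 to 3 held 892, 88 and 40, which is 1.14, 1.09 and 1.37 FPKM against 8.91, 0.884 and 0.396 FPKM. Olanzapine pool 1 was thus 9.13 times the mean of the other 5 pools, a ratio at the 99.9th percentile of all tested genes, where the median ratio was 0.976. It is the pool with the high cortical markers. With edgeR the log2 fold change came to 1.5 (SE 0.975, 95% interval -0.75 to 3.75), and the adjusted p to 0.469. The groups overlapped, since 1 olanzapine pool was far above and 2 were below all control pools. With limma on log2(FPKM + 1) the log2 difference was 0.43 (limma, adjusted p = 0.786).

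Adra1b had the same order of pools in the olanzapine group, at a smaller scale. Counts of Adra1b came to 342, 272 and 309 under control chow and to 622, 301 and 163 under olanzapine. The highest and the lowest of the 6 pools were both olanzapine pools, 3.85-fold apart in FPKM, while the control pools differed by at most 1.25-fold. The edgeR estimate was 0.27 log2 units (SE 0.423, 95% interval -0.71 to 1.24) at an adjusted p of 0.797.

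Adra1a, the third Gq-coupled receptor, was the steadiest gene of the family in the control pools, with a coefficient of variation of 3.78% in FPKM. It reached 985, 972 and 907 counts under control chow and 1161, 681 and 662 under olanzapine. Again olanzapine pool 1 was above and olanzapine pools 2 and 3 were below all control pools. Over all pools the edgeR estimate was -0.17 log2 units (SE 0.218, 95% interval -0.67 to 0.34) at an adjusted p of 0.746.

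Adrb1, the Gs-coupled beta-1 receptor, was counted 438, 585 and 435 times under control chow and 751, 421 and 364 times under olanzapine. As for the 3 alpha-1 receptors, olanzapine pool 1 was the highest pool and olanzapine pool 3 the lowest. Olanzapine pool 2 lay just below the control pools in TMM-normalized CPM, at 10.6 against 11 to 14.8, but not in FPKM, at 3.63 against 3.62 to 4.85. The edgeR estimate for Adrb1 was 0.10 log2 units (SE 0.279, 95% interval -0.54 to 0.75) at an adjusted p of 0.883. Olanzapine pool 1 was the highest pool for 4 of the 7 receptor genes, and for 22.8% of all tested genes.

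The alpha-2 receptors did not share this pattern. Adra2a, the most abundant receptor and the main presynaptic autoreceptor of noradrenergic terminals, gave 2103, 1752 and 1580 counts under control chow and 1182, 1277 and 1816 under olanzapine. Olanzapine pools 1 and 2 were below all control pools and olanzapine pool 3 lay within their range. Its edgeR estimate was -0.33 log2 units (SE 0.173, 95% interval -0.72 to 0.07) at an adjusted p of 0.373, and the interval ended at 0.605 of the control level. Leaving out 1 pool at a time moved the estimate between -0.54 without olanzapine pool 3 (edgeR, unadjusted p = 0.00519, adjusted p = 0.141) and -0.20 without control pool 1 (edgeR, unadjusted p = 0.302, adjusted p = 0.671).

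Adra2b, the scarcest receptor, gave 190, 143 and 127 counts under control chow and 117, 75 and 122 under olanzapine. It was the only member whose groups did not overlap, with all olanzapine pools below the control pools, a separation that 11% of all tested genes showed in that direction. The edgeR difference was -0.53 on the log2 scale (SE 0.266, 95% interval -1.14 to 0.09) at an adjusted p of 0.352, and 23.7% of the tested genes had a smaller p.

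Adra2c gave 804, 1173 and 804 counts under control chow and 889, 1222 and 944 under olanzapine. Both groups held 1 high pool, pool 2 in each case, and the ranges overlapped. Its log2 fold change of 0.16 had the smallest standard error of the family, 0.172, and the 95% interval, from -0.24 to 0.55, ran from 0.846 to 1.47 times the control level (edgeR, adjusted p = 0.694).

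**Figure D2:**
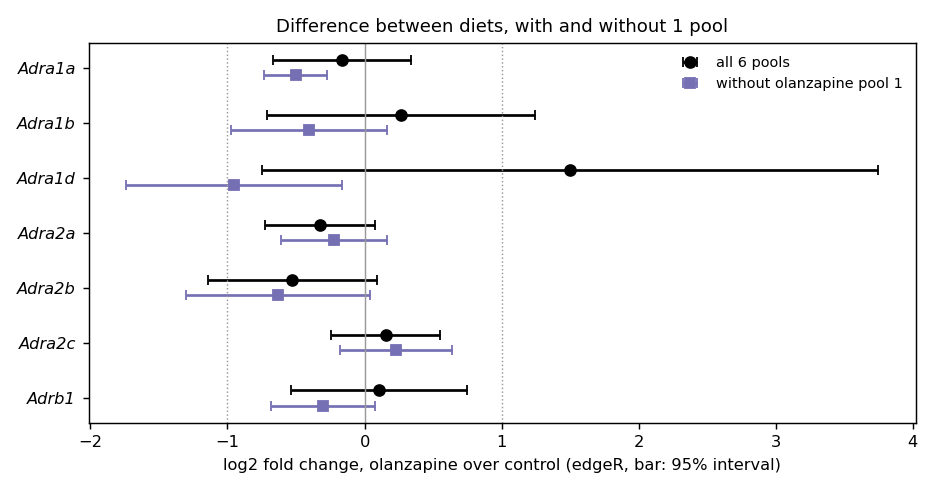
Log2 fold change of each receptor gene, olanzapine over control (horizontal axis), from edgeR with all 6 pools (black circles) and without olanzapine pool 1 (purple squares). Bars are 95% intervals and dotted lines mark a fold change of 2 in either direction. With all pools every interval spans 0, and Adra1d, Adra1b and Adrb1 change sign without olanzapine pool 1.

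The fold changes of the receptor genes were computed again without olanzapine pool 1, which leaves 2 olanzapine against 3 control pools. The edgeR log2 fold change of Adra1d then turned to -0.95 (SE 0.345, unadjusted p = 0.0232, adjusted p = 0.185), that of Adra1b to -0.41 and that of Adrb1 to -0.30. The mean level of Adra1d in the remaining olanzapine pools was 0.640 FPKM, against 1.20 in the control group. Adra1a reached -0.50 (SE 0.101) with an edgeR adjusted p of 0.0389, below the p threshold but within the fold limit, so it was still not called. An adjusted p under 0.05 with no fold limit was reached by 2.87% of the genes tested without this pool, and by 1.11% in the lower direction. Of the 7 receptor genes, 6 were lower in the olanzapine group without this pool, as were 50.3% of all genes. For 4 of the 7, both olanzapine pools lay below all control pools, as for 18% of all genes. These were Adra1a, Adra1d, Adra2b and Adrb1, in TMM-normalized CPM. Leaving out a pool lowers by construction the group mean of genes highest in it. Olanzapine pool 1 was highest for 4 of the 7 receptor genes and 22.8% of genes tested with all pools. The shares over all genes were not matched for this. Summed markers of cortical neurons (97.9 and 79.3 CPM against 113 to 154), of brain endothelium (93.2 and 83.8 against 136 to 157) and of vascular smooth muscle (22.7 and 24.7 against 27.3 to 35.2) also lay below all control pools in olanzapine pools 2 and 3, and their part in these values was not tested. The 5 fits that each left out another pool gave edgeR adjusted p values for Adra1a from 0.776 to 0.979.

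The make-up of the receptor transcripts was most unlike the control pools in olanzapine pool 1. Alpha-2 receptors made up 67.9% to 71.8% of the summed FPKM of the 7 genes in the control pools, 71.7% and 78.8% in olanzapine pools 2 and 3, and 43.1% in olanzapine pool 1. Alpha-1 receptors made up 14.1% to 18.3% in the control pools, 39.8% in olanzapine pool 1, and 14.9% and 9.59% in olanzapine pools 2 and 3. Adra1d by itself took between 3.50% and 5.20% in the control pools, 23.6% in olanzapine pool 1, 3.26% in olanzapine pool 2 and 1.49% in olanzapine pool 3. The share of Adrb1 stayed between 11.6% and 17.1% in all pools.

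**Figure D3:**
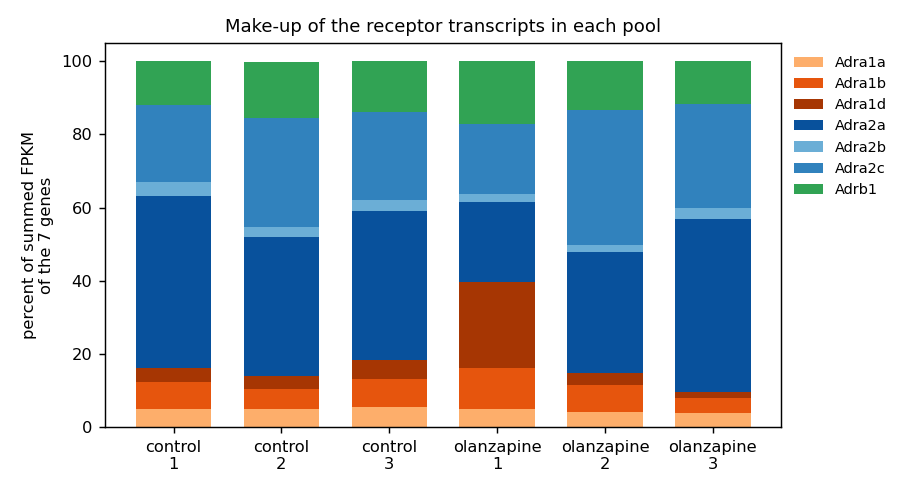
Percent of the summed FPKM of the 7 receptor genes (vertical axis) taken by each gene in each of the 6 pools. Orange shades are alpha-1, blue shades alpha-2 and green beta-1 receptors. Alpha-1 receptors take 39.8% in olanzapine pool 1 and at most 18.3% in any other pool.

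The receptors differed in the tissue markers with which they varied across pools. Over the 6 pools, the correlation of log2 CPM with the log2 summed level of the cortical markers was 0.975 for Adra1d, 0.897 for Adrb1, 0.886 for Adra1b and 0.785 for Adra1a. Without olanzapine pool 1 it was 0.912 for Adra1d, 0.627 for Adrb1, 0.680 for Adra1b and 0.776 for Adra1a over 5 pools. These genes also varied with other lists. With brain endothelium markers r was 0.946 for Adra1a, 0.712 for Adrb1, 0.688 for Adra1b and 0.678 for Adra1d over 6 pools, and 0.992, 0.758, 0.682 and 0.831 in the same order over the 5 pools without olanzapine pool 1. With smooth muscle markers it was 0.875 for Adra1a, 0.963 for Adrb1, 0.712 for Adra1b and 0.842 for Adra1d over 6 pools, and 0.770, 0.890, 0.163 and 0.440 over 5. No single one of these 3 lists had the highest r for all 4 genes, over 6 pools or over 5. Negative values of like size were found as well. With microglia markers, which spanned only 325 to 380 CPM, r was -0.904 for Adra1b, -0.898 for Adra1d, -0.827 for Adra1a and -0.725 for Adrb1 over 6 pools, and -0.842, -0.959, -0.695 and -0.426 over 5. With striatal markers it was -0.856 for Adra1a, -0.746 for Adra1b, -0.712 for Adra1d and -0.507 for Adrb1 over 6 pools. Over 5 pools these were -0.794, -0.639, -0.652 and -0.134. With hepatocyte markers it was -0.369 for Adra1a, 0.0344 for Adra1b, 0.0769 for Adra1d and 0.0674 for Adrb1 over 6 pools. Over 5 pools these were -0.948, -0.577, -0.805 and -0.573. With choroid plexus markers all 4 genes had r between -0.0394 and 0.153 over 6 pools, and between 0.118 and 0.640 over 5. Adra2a varied with the summed LS neuron list, with r = 0.968 over 6 pools and 0.963 over 5, and with 0.941 and 0.951 once Gad1, Gad2, Slc32a1 and Sst were left out. Its r with astrocyte markers was 0.852 over 6 pools and 0.873 over 5. For Adra2b the correlation with the whole LS neuron list was 0.669 over 6 pools and 0.913 over 5, and that with astrocyte markers was 0.940 and 0.977. Without Gad1, Gad2, Slc32a1 and Sst the LS neuron list gave 0.635 and 0.979 for Adra2b. For Adra2c the correlation with the LS neuron list was -0.26 and -0.511. Adra2c varied most with the striatal markers, with r = 0.745 over 6 pools and 0.805 over 5. These values describe the same 6 libraries as the comparison of diets and carry no test, and the points share library and dissection. In bulk tissue, fewer cells of a type and less RNA per cell cannot be told apart.

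**Figure D4:**
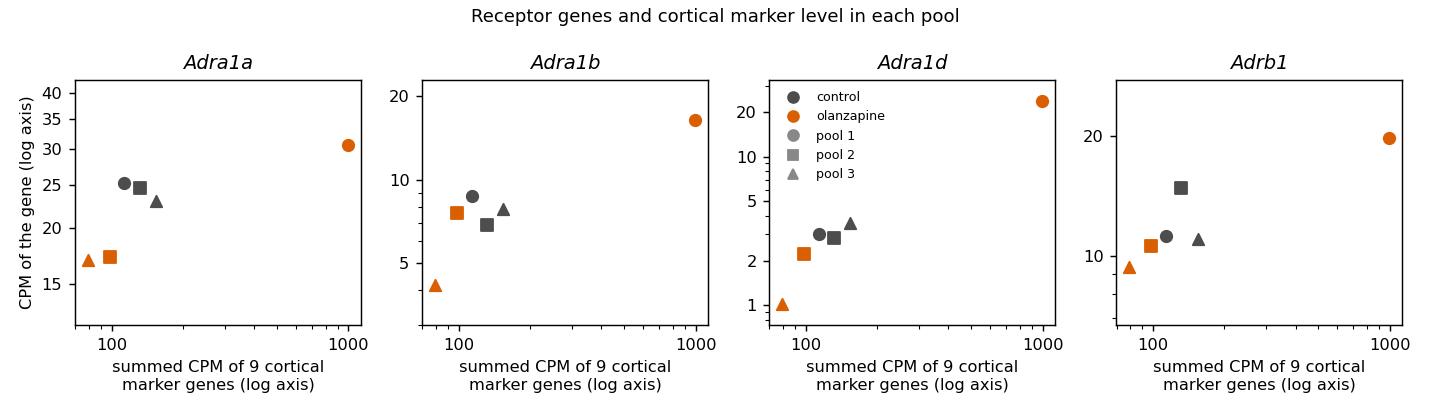
Level of Adra1a, Adra1b, Adra1d and Adrb1 in CPM (vertical log axis) against the summed CPM of 9 cortical marker genes (horizontal log axis), 1 point per pool. Grey points are control and orange points olanzapine pools, with the shape giving the pool number. Olanzapine pool 1, at 995 CPM of cortical markers, is the highest point in each panel.

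Genes with the most similar pattern over the 6 pools were sought among 14272 genes with a mean count of at least 50, by the correlation of log2 CPM. With so few pools, high values are common, and between 9 and 122 genes exceeded 0.95 for each receptor. The nearest to Adra1d were Lrrc57 (r = 0.997), Rgs6 (0.994), which encodes a regulator of G protein signalling, and Shisa5 (0.992). The gene nearest to Adra1b was Kcnc2 (0.9998), which encodes a potassium channel of fast-spiking neurons, and that nearest to Adra1a was Dab2ip (0.995). Dgkg, which encodes a diacylglycerol kinase, was nearest to Adra2a (0.993), 6430584L05Rik to Adra2b (0.997) and Gm15706 to Adrb1 (0.993). Adra2c had the fewest close matches, the nearest being Hrh3 (0.971), which encodes the histamine H3 receptor.

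The rest of the noradrenaline pathway was followed in 5 gene lists, of which 69 of 72 genes could be tested. Of the 69, 0 were called by edgeR and 0 by DESeq2, and 2 (Kcnj5 and Rgs4) had an edgeR adjusted p under 0.05 within the fold limit, a p that 2.32% of all tested genes reached with no fold limit. An unadjusted p under 0.05 was found in 5 genes higher and 9 lower in the olanzapine group, together 20.3% of the lists against 17.6% of all tested genes. The median log2 fold change over the lists was -0.09, and that of all tested genes was 0.0039.

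Of the genes of noradrenaline supply and clearance 0 of 8 were called, 1 was higher and 0 were lower at an unadjusted p under 0.05, and markers of noradrenergic cell bodies were at or near 0. Dbh, which encodes the enzyme that makes noradrenaline from dopamine, had 0 to 3 counts per pool, Slc6a2, the noradrenaline transporter, had 1 count in a single pool, and the transcription factor Phox2a had 0 in all pools. Th, the rate-limiting enzyme of catecholamine synthesis and shared with dopamine neurons, gave 224, 204 and 226 counts under control chow and 224, 345 and 301 under olanzapine. Its normalized level was higher in every olanzapine pool than in any control pool, but by a narrow margin. Olanzapine pool 1 was at 3.27 FPKM and control pool 3, the highest control, at 3.22 FPKM. The share of all tested genes separated in this direction is not given here. For Th the edgeR estimate was 0.43 log2 units (SE 0.177) at an adjusted p of 0.260. Maoa, a monoamine oxidase that breaks down noradrenaline, was estimated at -0.27 log2 units (edgeR, adjusted p = 0.318), and Maob had the highest level of the list at 21.6 FPKM. The median over the 8 tested genes was -0.11, and 0.0005 without olanzapine pool 2.

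In the Gq arm of the alpha-1 receptors, 0 of 15 genes were called, 1 gene was higher and 2 were lower at an unadjusted p under 0.05, and the median log2 fold change was -0.18. Prkcd, a protein kinase C, was lowest in olanzapine pool 1, with 18.9 FPKM against 27.1 to 41.7 in the other pools, and was estimated at -0.43 log2 units (edgeR, adjusted p = 0.325). The estimate was -0.24 without olanzapine pool 1 and -0.65 without olanzapine pool 3. Prkcb had the highest level of this arm, 76.7 FPKM on average.

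In the Gi and Go arm of the alpha-2 receptors, 0 of 13 genes were called, with 1 higher and 3 lower at an unadjusted p under 0.05 and a median of -0.11. Kcnj5, which encodes a subunit of the G protein-gated potassium channels, gave 453, 459 and 436 counts under control chow and 178, 282 and 248 under olanzapine. All olanzapine pools lay below the control pools, and the edgeR estimate was -0.91 log2 units (SE 0.171) at an adjusted p of 0.0380, short of the fold limit. Its edgeR adjusted p ranged from 0.0281 to 0.156 when 1 pool was left out at a time. With all pools, DESeq2 gave -0.92 log2 units at an adjusted p of 9.73e-05, also short of the fold limit. Limma on log2(FPKM + 1) gave an adjusted p of 0.0562. Kcnj9, another subunit, was at 26.6 FPKM in olanzapine pool 1 and 11.1 to 14.4 FPKM in the other pools. Its log2 fold change of 0.33 turned to -0.17 without that pool. Gnb1 had the highest level of this arm, 191 FPKM.

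In the Gs and cyclic AMP arm of the beta receptors, 0 of 19 genes were called, with 0 higher and 2 lower at an unadjusted p under 0.05 and a median of -0.06. Prkar2a, a regulatory subunit of protein kinase A, was at 17.4, 15.5 and 15.5 FPKM in the control pools and 13.6, 13.6 and 13.2 FPKM in the olanzapine pools. The groups did not overlap and the olanzapine pools were tightly grouped, and the edgeR estimate was -0.28 log2 units at an adjusted p of 0.116. Pde4b, a cyclic AMP phosphodiesterase, was estimated at -0.21 log2 units (edgeR, adjusted p = 0.250). Gnas, which encodes the Gs alpha subunit, was the most abundant gene of the arm, at 223 FPKM in both groups.

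Among receptor kinases, arrestins, RGS proteins and scaffolds, 0 of 14 genes were called, with 2 higher and 2 lower at an unadjusted p under 0.05 and a median of 0.0042. Rgs4, which speeds the shut-off of Gq and Gi proteins, was at 46.4, 59.7 and 56.2 FPKM in the control pools and 98.0, 90.4 and 79.5 FPKM in the olanzapine pools. The groups were well apart, and the edgeR estimate was 0.70 log2 units (SE 0.114) at an adjusted p of 0.0233, within the fold limit. That adjusted p ran from 0.0217 to 0.0855 when 1 pool was left out at a time. With all pools, DESeq2 gave 0.70 log2 units at an adjusted p of 1.76e-06, also within the fold limit. Limma on log2(FPKM + 1) gave an adjusted p of 0.0301. Grk5, a kinase that phosphorylates active receptors, was estimated at -0.42 log2 units (edgeR, adjusted p = 0.180) and -0.28 without control pool 1, and Ppp1r9b, a scaffold that binds alpha receptors, was the most abundant gene at 247 FPKM.

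**Figure D5:**
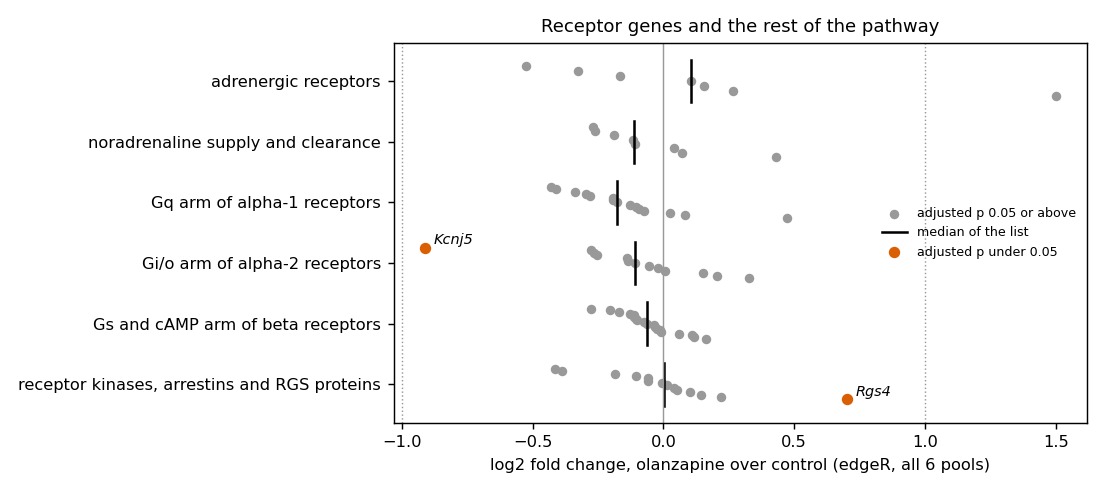
Log2 fold change, olanzapine over control (horizontal axis), of the tested genes of the receptor family and of the 5 pathway lists, 1 point per gene. Vertical bars are list medians, dotted lines mark a fold change of 2, and orange points have an adjusted p under 0.05. Kcnj5 (-0.91) and Rgs4 (0.70) are the only orange points, and Adra1d (1.5) is the only gene beyond the fold limit.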

How the data were processed

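LS tissue was sequenced as paired-end reads, and the groups were taken from the labels. Raw read counts per gene were deposited by the authors, who used fastp for trimming, HISAT2 for alignment and HTSeq-count for counting. The authors also deposited FPKM, which proved to be the same counts scaled by 1 factor per library and 1 per gene. The genome build mm10 is named in the submitters' processing notes. The annotation, the strand setting and the treatment of multi-mapped reads are not given in the sources used here. Of the sample columns, 0 were left unused.

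The quasi-likelihood F test of edgeR 4.0.16 (R 4.3.3, TMM scaling, diet as the only term) was run on the counts over genes passing filterByExpr at a minimum count of 10 and a total of 15. Standard errors are the absolute log2 fold change divided by the square root of F, and 95% intervals use the total degrees of freedom of the fit, prior included. A positive log2 fold change means higher in the olanzapine group. P-values were adjusted by Benjamini-Hochberg over all tested genes. With 3 pools against 3, an exact permutation test cannot give a p below 0.1, so none was used. The p-values measure the spread between pools. Depth was 38208153 to 39868872 counts per library. The script was tested on simulated counts with the same dispersion for all genes and no outlying pool. That setting is unlike the spread of Adra1d between the olanzapine pools.

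Genes named outside the family are, per list, the 2 with the largest absolute log2 fold change and the most abundant 1, and the 3 most alike in pattern to each receptor, of which the nearest is given, and for Adra1d all 3. Some genes under this rule are not reported here. Marker lists covered neurons of cortex, LS, medial septum, striatum and noradrenergic nuclei, choroid plexus, smooth muscle, meninges, hepatocytes, astrocytes, oligodendrocytes, microglia and endothelium. The members and lists were chosen with earlier results of these data known. Alternatives were DESeq2 1.42.0, RLE or upper-quartile scaling, other filters, limma 3.58.1 on log2(FPKM + 1) or log2(FPKM + 0.1), a replicate block, other thresholds and leaving out each pool. Sequences and positions came from GENCODE M21 for GRCm38.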

Additional observations from a re-analysis of the deposited data

How the results depend on the processing

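Under the 17 alternatives run for each receptor gene, 0 of the 7 were called, and Adra1a, Adra2a, Adra2b and Adra2c kept their direction. Without olanzapine pool 1 the log2 fold change turned to -0.95 for Adra1d, -0.41 for Adra1b, -0.30 for Adrb1 and -0.17 for Kcnj9, and the highest values, all without olanzapine pool 3, were 2.03, 0.62, 0.30 and 0.56. Over all genes, 174 were called (164 higher, 10 lower) by edgeR, 304 (267 and 37) by DESeq2, 65 (65 and 0) by limma on log2(FPKM + 1) and 60 (60 and 0) without its filter. The number was 401 (316 and 85) with no fold limit, 514 (425 and 89) with unadjusted p, and 85 to 176 (85 to 158 and 0 to 18) when 1 pool was left out. With no fold limit, 1 gene each was called in the Gi and Go arm (Kcnj5) and among kinases, arrestins and RGS proteins (Rgs4). Leaving out 1 pool at a time, the list medians ran from -0.11 to 0.0005 for supply and clearance (highest without olanzapine pool 2), -0.20 to -0.11 for the Gq arm (highest without control pool 2), -0.17 to 0.0158 for the Gi and Go arm (without olanzapine pools 1 and 2 in turn), -0.16 to -0.05 for the Gs arm (lowest without olanzapine pool 1) and -0.0534 to 0.0531 for kinases, arrestins and RGS proteins (without control pool 3 and olanzapine pool 2). In the same way Adra1a ran from -0.50 to -0.02, Adra2a from -0.54 to -0.20, Adra2b from -0.65 to -0.33 and Adra2c from 0.02 to 0.36. The cause was not tested.

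Same-numbered pools did not deviate together (r = -0.00262, 0.0616 and -0.255). With 3 pools per group these values cannot decide whether the numbers pair the pools. With the replicate block 86 genes were called (86 higher, 0 lower) and none of the receptor genes, Adra1d had a log2 fold change of 0.26, and the edgeR adjusted p was 0.0882 for Kcnj5 and 0.0832 for Rgs4. The SE of Adra1d was 0.975 with all pools and 0.345 without olanzapine pool 1. The LS neuron list without its general GABAergic genes and the correlations with lists other than the cortical and LS neuron lists were chosen after seeing the data.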
